A study of Mus musculus with 4 samples.

Results

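Metallothioneins are small, cysteine-rich proteins that bind zinc and copper, and cells make more of them when free zinc or certain stress hormones rise. The genes described here are Mt1 and Mt2, which encode the 2 widely expressed metallothioneins, Mtf1, which encodes the zinc-sensing transcription factor of the same system, and 5 zinc transporter genes, Slc30a1, Slc30a2, Slc30a10, Slc39a4 and Slc39a5. They were chosen by symbol, and all 8 were present among the 24182 genes shared by the 2 deposited tables. RNA came from small-intestinal crypts of male C57BL/6J mice aged 9 weeks. There were 4 groups: mice fed without tetracycline, mice fasted for 24 hours without tetracycline, mice fed and given tetracycline (an antibiotic) for 21 days, and mice given the same tetracycline and fasted for 24 hours. The labels list 1 sample in each group and name no genotype beyond the strain, and the number of animals behind a sample is not stated. The stated purpose was to see how the loss of what the labels call AKK under tetracycline bears on expression in fed and fasted mice.

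Each table held the authors' comparison of fasted with fed crypts, 1 without and 1 with tetracycline. The direction of change was read from the order of words in the tables' names, since no column states it. Under that reading Pdk4, a kinase that spares glucose in fasting, rose with log2 changes of 2.27 (adjusted p = 7.82e-07) and 2.90 (adjusted p = 0.00111) in the authors' deposited tables, the latter 3.54 and 1.69 without fasted library 1 and 2. The means in the tables are sums of whole counts divided by size factors, so the counts behind each mean could be solved for. All 16 values of the 8 genes were solved to 1 set of counts, and the largest gap to the deposited log2 change was 1.38e-07. Each comparison was found to rest on 4 libraries, 2 fasted and 2 fed, although the labels list 1 sample in each group. No label says which library belongs to which sample, and whether they came from separate mice is not stated, so each is given as a single value and p-values measure only the spread between these libraries. Within a side, library 1 is the library with the larger size factor. The 2 fasted libraries with tetracycline stood apart from each other in cell type markers, so changes with tetracycline of the 8 genes, and of the other called or described genes whose counts were solved, are also given without each of them. Size factors ran from 0.727 to 1.27, and the lowest count of any of the 8 genes was 852, for which counting error alone is 3.43%.

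In the intestine, zinc enters the absorptive cell through importers of the SLC39 (ZIP) family, such as ZIP4 at the luminal surface. SLC30 (ZnT) proteins move it the other way, out of the cytosol into vesicles or out of the cell. When zinc in the cytosol rises, the factor MTF1 binds short DNA sequences called metal response elements and switches on metallothionein genes and Slc30a1, while Zip4 protein and mRNA are known to be kept high in zinc shortage. Metallothionein genes also carry glucocorticoid-responsive sequences and respond to the hormones of fasting and stress.

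Mt1 (ENSMUSG00000031765.9) lies at chr8:94179082-94180327 and Mt2 (ENSMUSG00000031762.8) at chr8:94172664-94173568, both on the plus strand of GRCm38 (mm10) by the GENCODE M21 annotation, with 5513 bases between them. Because these neighbours moved together in the data, their promoters are shown, with that of Slc30a1, a textbook target of the same factor whose mRNA gave a smaller value. Each is the RefSeq window (GRCm38.p6) from 250 bases before to 50 bases after the gene's start, 5′ to 3′ on the plus strand. Capitals mark matches to the core of the metal response element, searched as TGCACNC or TGCGCNC on both strands, which reads GNGTGCA or GNGCGCA where the match is on the other strand.
Mt1, chr8:94178839-94179138: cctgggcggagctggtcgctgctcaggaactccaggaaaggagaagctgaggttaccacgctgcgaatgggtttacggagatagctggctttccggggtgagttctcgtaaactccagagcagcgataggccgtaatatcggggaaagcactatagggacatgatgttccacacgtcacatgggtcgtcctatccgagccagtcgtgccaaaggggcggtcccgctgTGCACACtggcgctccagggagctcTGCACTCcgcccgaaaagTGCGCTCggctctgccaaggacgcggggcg
Mt2, chr8:94172368-94172667: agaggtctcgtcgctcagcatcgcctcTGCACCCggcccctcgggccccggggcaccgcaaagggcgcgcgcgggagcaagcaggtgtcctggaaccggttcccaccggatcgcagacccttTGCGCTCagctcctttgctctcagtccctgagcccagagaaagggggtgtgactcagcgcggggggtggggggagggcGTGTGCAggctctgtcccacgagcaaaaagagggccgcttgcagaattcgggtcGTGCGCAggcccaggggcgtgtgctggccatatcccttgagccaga
Slc30a1, chr1:191906531-191906830: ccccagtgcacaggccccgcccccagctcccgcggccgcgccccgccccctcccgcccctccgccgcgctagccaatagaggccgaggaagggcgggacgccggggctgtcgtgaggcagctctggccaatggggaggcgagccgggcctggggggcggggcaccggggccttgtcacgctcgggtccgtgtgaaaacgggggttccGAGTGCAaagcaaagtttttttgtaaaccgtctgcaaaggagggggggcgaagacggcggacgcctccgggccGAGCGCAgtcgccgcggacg
The Mt1 window held 3 matches, the Mt2 window 4 and the Slc30a1 window 2. Of 32851 RefSeq promoter windows of the same length, 25.7% held at least 1 match, 7.11% at least 2, 1.97% at least 3 and 0.518% at least 4. In the other windows of the 8 genes there were 3 matches for Slc30a10, a pair of them overlapping, and 2 for Slc30a2. Mtf1 had 0. Slc39a5 had 2 windows, 1 with 0 matches and 1 with 1, and Slc39a4 was not in the promoter table. A match says only that the letters are there.

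Fasting was accompanied by more Mt1 and Mt2 mRNA in both tables, and these were the only genes of the 8 that passed the authors' test in both. Without tetracycline, Mt1 stood at 28653 and 31454 normalized counts in the fasted libraries and at 4963 and 8451 in the fed libraries. The lowest fasted value was thus well above the highest fed value. The authors' deposited table gave a 4.48-fold rise, a log2 change of 2.16 (SE 0.31, 95% interval 1.55 to 2.77, DESeq2 adjusted p = 2.69e-09). With tetracycline, Mt1 stood at 24381 and 30163 in the fasted and at 6683 and 5645 in the fed libraries. The sides again did not overlap, and the deposited log2 change of 2.15 (SE 0.37, DESeq2 adjusted p = 8.81e-06), or 4.42-fold, was close to that without the antibiotic.

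Mt2, the second metallothionein gene, also rose, with a larger deposited fold, a difference between the genes that was not tested. Without tetracycline its normalized counts were 19121 and 25963 in the fasted pair against 1713 and 2781 in the fed pair. The deposited change was 10.03-fold, or 3.33 on the log2 scale (SE 0.32, DESeq2 adjusted p = 2.68e-22). With tetracycline the fasted libraries held 20092 and 12843 and the fed libraries 2762 and 2232. Both fasted libraries lay far above both fed ones, although they differed from each other by 1.56-fold. The deposited log2 change was 2.72 (SE 0.42, DESeq2 adjusted p = 1.96e-07), or 6.60-fold.

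Summed over both genes, metallothionein mRNA was 47774 and 57417 normalized counts in the fasted and 6676 and 11232 in the fed pair without tetracycline. With tetracycline the sums were 44472 and 43007 in the fasted pair against 9444 and 7877 in the fed pair. The summed level of the 2 fasted libraries with tetracycline was thus nearly equal, although Mt1 was higher in library 2 and Mt2 in library 1. Without tetracycline, the ratio of Mt2 to Mt1 counts, not corrected for transcript length, was 0.667 and 0.825 in fasted against 0.345 and 0.329 in fed libraries. With tetracycline it was 0.824 and 0.426 in fasted against 0.413 and 0.395 in fed libraries, so the fasted values were the higher ones in both tables, and fasted library 2 lay just above the fed pair. The ratio was not tested, because each side has 2 libraries whose source is not stated.

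**Figure D1:**
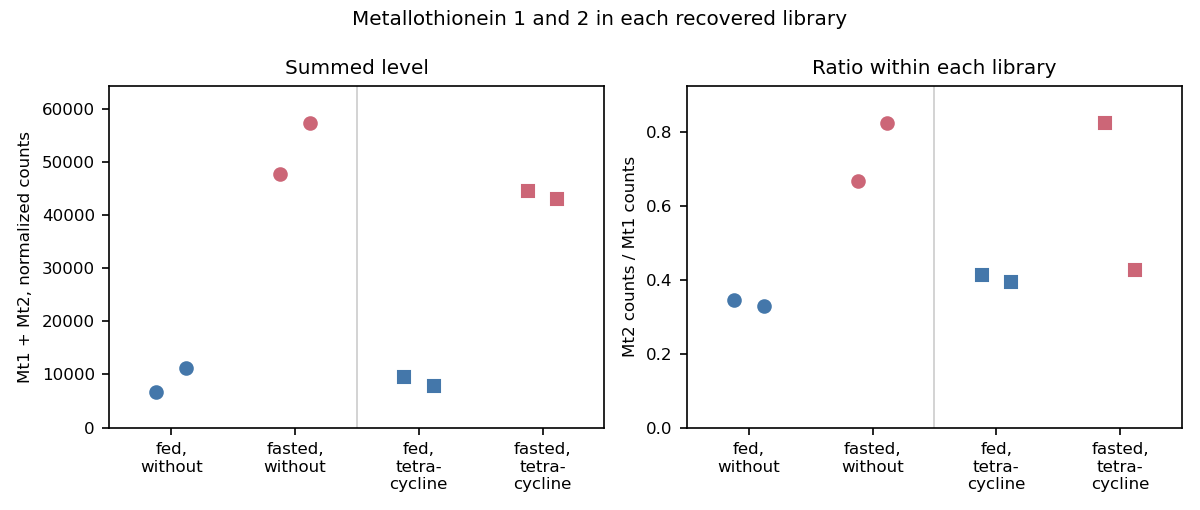
Left, the sum of Mt1 and Mt2 normalized counts in each recovered library, and right, the ratio of Mt2 to Mt1 counts, for fed (blue) and fasted (red) mice without (circles) and with (squares) tetracycline, 1 point a library. The lowest fasted sum lies far above the highest fed sum in each table, while the ratio of 1 fasted library with tetracycline, 0.426, sits beside the fed values.

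Some reads could be shared with other genes. The library kit does not keep strand, and 58.1% of the 31-base words of Mt2 transcripts also occur in transcripts of other genes, mostly in Gm45774, which overlaps it. Gm45774 had means of 8.62 and 8.28 in the 2 tables, against 12394 and 9482 for Mt2. Mt1 shared 0% of its words with any other gene, Mt2 included. Mt3, the metallothionein known from brain, and Mt4, known from stratified epithelium, were barely read in these crypts, with means of 8.82 and 1.52 without and 6.88 and 3.09 with tetracycline.

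Mtf1, the gene of the zinc-sensing factor itself (chr4:124802104-124849800, plus strand), did not pass the test in either table. It had normalized counts of 3133 and 1631 in the fasted pair against 2296 and 2249 in the fed pair without tetracycline. With it, the fasted libraries held 1412 and 2950 and the fed 2466 and 2336. In both tables the fed values lay between a high and a low fasted library. The deposited log2 changes were 0.07 (SE 0.34) and -0.14 (SE 0.49), with DESeq2 adjusted p-values of 0.986 and 0.999909 and 95% intervals of -0.60 to 0.73 and -1.09 to 0.81. With tetracycline the value was 0.30 without fasted library 1 and -0.77 without fasted library 2. Of the words of Mtf1 transcripts, 7.77% occur in 1110065P20Rik, a neighbour on the opposite strand with means of 626 and 699.

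**Figure D2:**
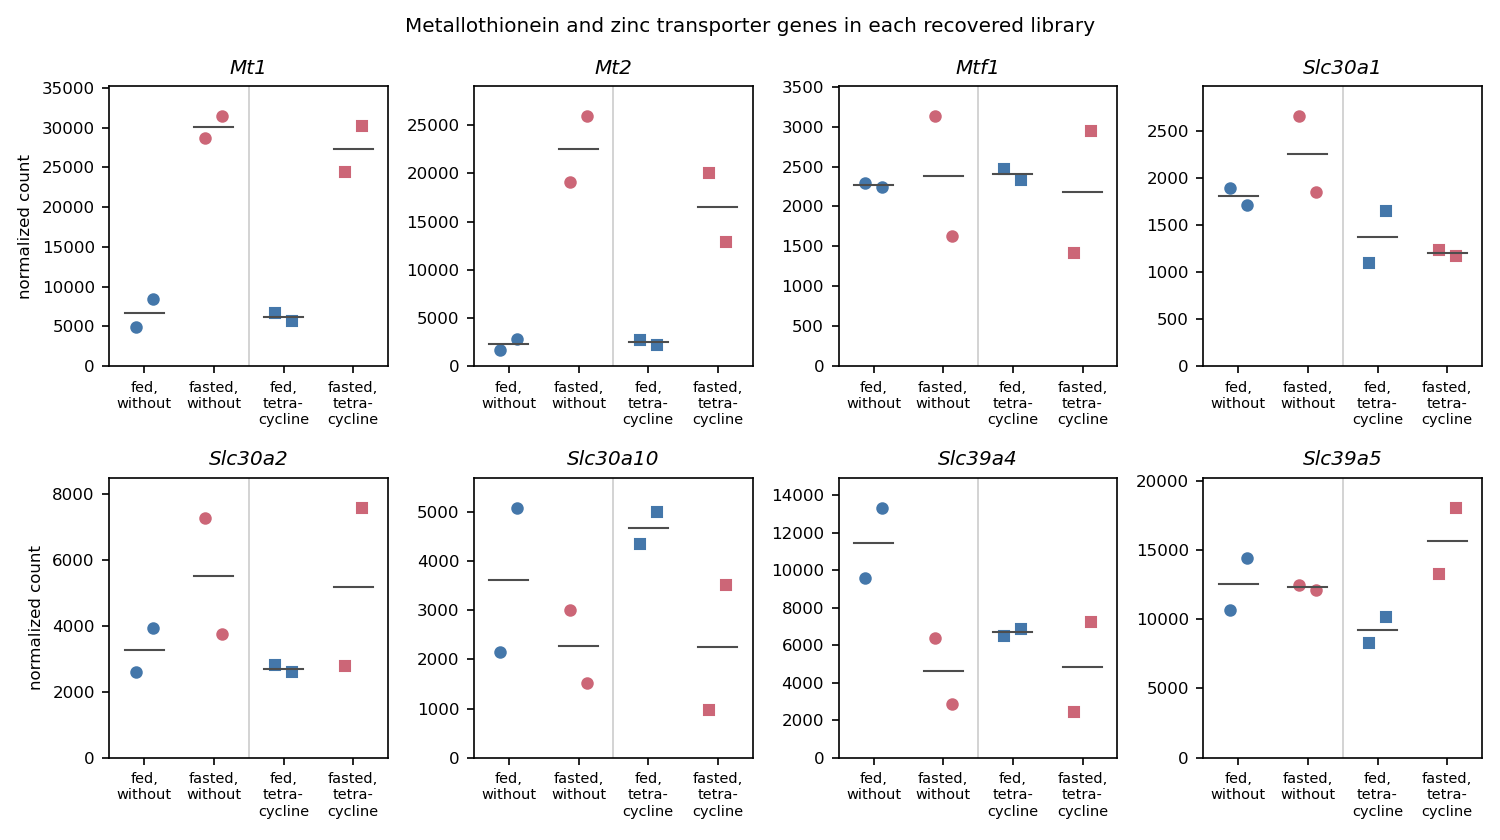
Normalized counts of the 8 genes (vertical axes, starting at 0) in each of the 8 recovered libraries, for fed (blue) and fasted (red) mice without (circles) and with (squares) tetracycline, with horizontal lines at the mean of each pair. Mt1 and Mt2 are separated from fed in both tables, Slc39a4 is lower in fasted libraries without tetracycline, and Mtf1, Slc30a2, Slc30a10 and Slc39a4 spread widely between the 2 fasted libraries.

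None of the 3 exporter genes passed the authors' test in either table. Slc30a1 (chr1:191906767-191913247, plus strand) encodes ZnT1, which carries zinc out of the cell, and its normalized counts without tetracycline were 2654 and 1851 in the fasted pair against 1894 and 1707 in the fed pair. With tetracycline they were 1233 and 1172 in the fasted pair against 1093 and 1646 in the fed pair. The sides overlapped in both tables. The deposited log2 changes were 0.32 (SE 0.29, 95% interval -0.24 to 0.89) and -0.19 (SE 0.41, 95% interval -0.997 to 0.62), the latter -0.22 and -0.15 without fasted library 1 and 2. Of its 31-base words, 8.38% occur in 1700034H15Rik, which had means of 25.5 and 22.4. The upper ends of these intervals lie below the lower ends for Mt1, at 1.55 and 1.41, which is a comparison of intervals and not a test between genes.

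Slc30a2 (chr4:134343181-134354484, plus strand) encodes ZnT2, which loads zinc into vesicles and granules and in the crypt is known from Paneth cells. Its normalized counts were 7265 and 3755 in the fasted pair against 2584 and 3913 in the fed pair without tetracycline, and 2773 and 7578 in the fasted pair against 2803 and 2589 in the fed pair with it. In both tables a single fasted library stood far above all others and the other lay within or next to the fed range. The deposited log2 changes of 0.76 (SE 0.36) and 0.94 (SE 0.55) had DESeq2 adjusted p-values of 0.394 and 0.999909, and both moved with single libraries. Without tetracycline the value was 0.21 without fasted library 1, the high one, and 1.16 without fasted library 2. With tetracycline it was 1.49 without fasted library 1 and 0.04 without fasted library 2, the high one.

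Slc30a10 (chr1:185454848-185468762, plus strand) encodes ZnT10, which in spite of its family is best known for exporting manganese. Without tetracycline its normalized counts were 3011 and 1517 in the fasted pair against 2144 and 5096 in the fed pair, and the sides overlapped. With tetracycline the fasted libraries held 973 and 3518 and the fed libraries 4358 and 4999, so both fasted values lay below both fed values. The deposited log2 changes of -0.68 (SE 0.43) and -1.06 (SE 0.62) did not pass the test, with DESeq2 adjusted p-values of 0.636 and 0.999909. Without tetracycline the value was 0.08 without fed library 2, -1.17 without fed library 1, -1.25 without fasted library 1 and -0.27 without fasted library 2. With tetracycline it was -0.41 without fasted library 1 and -2.26 without fasted library 2. Of the 31-base words of its transcript, 8.94% occur among 2728 other genes, most of these words in Gm2061, which had means of 495 and 433.

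Slc39a4 (chr15:76612383-76617384, minus strand), the importer gene mutated in the zinc deficiency acrodermatitis enteropathica, fell in fasted crypts without tetracycline. Its normalized counts were 6390 and 2851 in the fasted pair against 9603 and 13343 in the fed pair. Both fasted libraries lay below both fed ones, though the fasted pair differed by 2.24-fold. The authors' deposited table gave a log2 change of -1.31 (SE 0.38, 95% interval -2.05 to -0.57, DESeq2 adjusted p = 0.0285), a level 2.48-fold higher in fed crypts. The size rested in part on single libraries, with a log2 change of -2.01 without fasted library 1 and -0.84 without fasted library 2. With tetracycline the fasted libraries held 2460 and 7237 and the fed libraries 6494 and 6886, so 1 fasted library was below and 1 above the fed pair. The deposited log2 change there was -0.46 (SE 0.57, DESeq2 adjusted p = 0.999909), and it was 0.11 without fasted library 1 and -1.44 without fasted library 2.

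Slc39a5 (chr10:128395931-128401229, minus strand) encodes ZIP5, an importer known from the basolateral side of intestinal and pancreatic cells, whose regulation by zinc is known to run opposite to that of ZIP4. Without tetracycline its normalized counts were 12454 and 12127 in the fasted pair against 10677 and 14429 in the fed pair, and the fasted pair lay inside the fed range. The deposited log2 change was -0.03 (SE 0.27, 95% interval -0.56 to 0.50). With tetracycline both fasted libraries, at 13272 and 18058, were above both fed ones, at 8270 and 10159. The deposited log2 change of 0.77 (SE 0.39, DESeq2 adjusted p = 0.941) did not pass the test, and it was 0.97 without fasted library 1 and 0.53 without fasted library 2.

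Without tetracycline 3 of the 8 genes were thus called at the authors' adjusted p under 0.05, where 2.27% of all 18100 tested genes were. Mt1 and Mt2 were higher in fasted mice, as were 1.06% of tested genes, and Slc39a4 was lower, as were 1.22%. With tetracycline 2 of 8 were called, where 0.600% of 17993 tested genes were, both as higher in fasted mice, as were 0.333% of tested genes. The median log2 change of the 8 was 0.20 and 0.31, beside 0.01 and -0.02 over all tested genes. Fasted and fed libraries did not overlap for 3 of 8 genes without and 4 of 8 with tetracycline. That is a common event here, since it held for 45.7% and 31.6% of a 1 in 8 subset of genes with means of 1000 to 4000. Of the genes that did not overlap, Mt1, Mt2, Slc39a4 and Slc39a5 had means above that range, where the share was not computed.

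**Figure D3:**
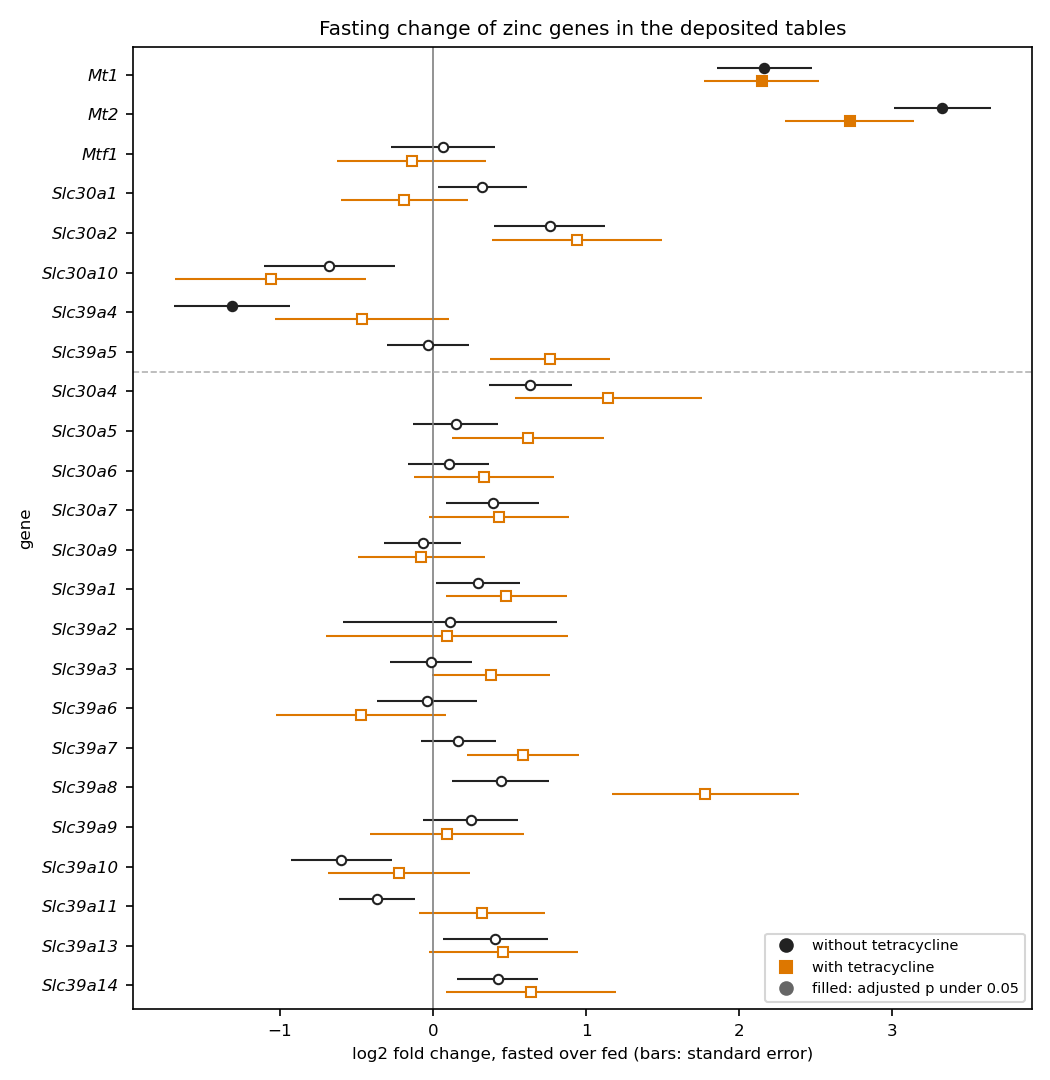
Deposited log2 fold change of fasted over fed (horizontal axis, bars show the standard error) for the 8 genes above the dashed line and for other zinc transporter genes with a mean of at least 20 below it, without (black circles) and with (orange squares) tetracycline. Filled symbols passed the authors' adjusted p under 0.05: Mt1 and Mt2 in both tables and Slc39a4 without tetracycline.

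The question of the study is whether the response to fasting differs with tetracycline. The tables share no libraries, so the 2 changes of each gene were compared by a two-sided Wald test, with Benjamini-Hochberg adjustment over 17571 genes. None of the 8 passed this test, where 4 genes, 0.0228%, did, and 0 of the 8 had an unadjusted p under 0.05, as 185 of the 17571 genes did, so these counts say nothing particular about the 8. For Mt1 the change with minus that without tetracycline was -0.02 on the log2 scale (SE 0.49, 95% interval -0.97 to 0.93). For Mt2 it was -0.61 (SE 0.53, 95% interval -1.64 to 0.43). For Slc39a4 it was 0.85 (SE 0.68, 95% interval -0.49 to 2.19), so the passing test without and the failing test with tetracycline do not show a different response. The lowest unadjusted p, 0.0946, belonged to Slc39a5, whose changes differed by 0.80 (SE 0.48). The intervals are wide enough to hold differences of about the size of several of the changes themselves.

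Levels with and without tetracycline were set side by side across the separately scaled tables, centred on the median gene and without a test. None of the 8 genes reached a log2 ratio of 1 in either direction, where 11.8% of 21925 genes did in fed and 7.05% in fasted mice. In fed mice the log2 ratio was farthest from 0 for Slc39a4, at -0.84, from means of 11472 without and 6690 with tetracycline. Slc39a5 followed at -0.51 and Slc30a1 at -0.45, while Mt1 and Mt2 were at -0.18 and 0.09. In fasted mice Slc30a1 was farthest, at -0.97, from means of 2252 and 1203. Mt2 was at -0.52 and Mt1 at -0.20, and Slc39a4 was at 0.00.

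The tissue label was checked against markers. Stem and Paneth cell genes were well read, with means of 803 and 757 for Lgr5 and 174543 and 212861 for Lyz1, as was the enterocyte gene Vil1, with 126795 and 122164. Of 16 pancreatic acinar markers 13 were in the tables. The enzyme gene Cpa1 had means of 31.6 and 25.0, while Clps, the colipase gene, had means of 4289 and 5080 and made up most of the list's summed level, which ran from 3872 to 6571 without and from 3036 to 11458 with tetracycline. DESeq2 called 0 acinar markers in either table (5 and 0 at an unadjusted p under 0.05). Without tetracycline 12 of 13 lay below 0 with a median log2 change of -1.68, Clps being the exception at 0.66 (SE 0.26), and with it 8 lay below 0 with a median of -0.27. The 2 fasted libraries with tetracycline stood apart from each other. The summed level of 3 solvable enterocyte markers of the list of 15 (Slc2a2, Treh and Slc15a1) was 14706 in library 1 and 125177 in library 2, against 40413 and 40059 in the fed libraries. The sum of 8 of 12 Paneth markers ran the other way, 324861 against 64272, with 81650 and 86544 in fed libraries. Without tetracycline the enterocyte sum was 95851 and 35958 in the fasted pair against 36283 and 57400 in the fed pair, and the Paneth sum 127267 and 156445 against 96972 and 113998. In the authors' test 7 of 12 Paneth markers rose without and 0 with tetracycline, with median log2 changes of 1.04 and 1.15 and 11 and 12 markers above 0. Of 15 enterocyte markers 2 rose without and 0 with tetracycline, with medians of 0.58 and 0.83.

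Most markers of blood, immune and stromal cells had changes below 0. Of 8 lymphocyte markers 4 fell without and 0 with tetracycline, with median log2 changes of -1.41 and -1.71 and all 8 below 0 in both tables. The summed lymphocyte level was 5888 and 11678 in the fasted pair against 13951 and 18052 in the fed pair without tetracycline, and 19058 and 3217 against 57631 and 15229 with it. Of 4 erythrocyte markers in the tables, 4 fell without and 0 with tetracycline, with medians of -2.63 and -1.33. The sum of 3 of them was 11954 and 16588 in the fasted pair against 42371 and 148829 in the fed pair without tetracycline, and the sum of all 4 was 72826 and 11663 against 127568 and 87095 with it. Of 10 stromal and muscle markers 3 fell without and 0 with tetracycline, with medians of -1.13 and -1.10, and their sum was 324 and 673 against 745 and 1978 without tetracycline and 1011 and 325 against 1483 and 765, which overlap, with it. Of 8 myeloid markers 1 and 0 fell, with medians of -1.10 and -1.34. All 10 proliferation markers lay below 0 in both tables, with medians of -0.64 and -0.50 and 1 and 0 called, and all tested tuft cell markers, 6 and 5, lay above 0, with medians of 0.75 and 0.32 and 0 called by DESeq2 (3 and 0 at an unadjusted p under 0.05). In the list of distal small intestine, Fabp6, the ileal bile acid binding protein gene, fell without tetracycline (log2 change -5.13, SE 0.34, DESeq2 adjusted p = 1.46e-48), and the other 5 genes passed in neither table. Its change with tetracycline was -2.21 (SE 0.75) and did not pass, and it was -1.43 and -4.04 without fasted library 1 and 2. Of 6 markers of proximal small intestine, Fabp1, a fatty acid binding protein gene that is also in the enterocyte list, rose and the iron exporter gene Slc40a1 fell without tetracycline, and Slc40a1 fell with it, with medians of 0.21 and -0.30. The sum of 4 of them (Cybrd1, Gata4, Onecut2 and Slc40a1, without Fabp1) was 19381 and 19432 in the fasted pair against 20458 and 24021 in the fed pair without tetracycline, and 15372 and 22944 against 28953 and 34584 with it, with no overlap in either table. Without tetracycline Slc40a1 had means of 3031 in the fasted and 7371 in the fed pair, and Cybrd1 482 and 662. Gata4 had 10619 and 10526, and Onecut2 rose from 3681 in the fed to 5275 in the fasted pair. With tetracycline Slc40a1 had means of 3186 and 11947, and the means of the others were also lower in the fasted pair.

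Among the secretory and stem cell lists, the goblet cell sum was lower in the fasted than in the fed pair without tetracycline, as was Slc39a4. Most of that sum was Agr2, with mean normalized counts of 12371 in the fasted and 28488 in the fed pair. Within the fasted pair the goblet sum was higher in library 2 and Slc39a4 in library 1. The sum of 3 of 8 goblet markers (Agr2, Atoh1 and Spdef) was 13254 and 16059 in the fasted pair against 27770 and 34687 in the fed pair, and that of the same genes with Tff3 was 56933 and 55174 against 42485 and 51670 with tetracycline. These sums hold different genes, so their directions cannot be compared. With tetracycline most of the sum was Tff3, with mean normalized counts of 42612 in the fasted and 31658 in the fed pair. Agr2 was at 10928 and 13708 there, and its sides overlapped. Atoh1 (1188 and 807) and Spdef (1326 and 905) were higher in the fasted pair with tetracycline. Agr2 fell without tetracycline (log2 change -1.20, SE 0.27, DESeq2 adjusted p = 0.00121), and no other goblet marker passed in either table, with medians of -0.26 and 0.39. Of 8 enteroendocrine markers 1, the hormone gene Cck, fell without and 0 passed with tetracycline, with medians of -0.18 and 0.28. Their sum was 29414 and 40167 in the fasted pair against 38166 and 41406 in the fed pair without tetracycline, which overlap, and 35752 and 35826 against 27419 and 30273 with it. DESeq2 called 0 of 7 stem cell markers in either table (1 and 0 at an unadjusted p under 0.05), with medians of 0.36 and 0.27. The sum of 6 of them was 27442 and 35017 in the fasted pair against 29695 and 17986 in the fed pair without tetracycline, and 42386 and 17643 against 15871 and 31942 with it, so the sides overlapped in both tables. The part of these cell types and of the gut region in the zinc gene values was not tested. In bulk RNA, fewer cells of a type and less RNA per cell cannot be told apart.

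The zinc genes differed in how far they followed these libraries. In each table Slc39a4, Slc39a5, Slc30a10, Slc30a2 and Mtf1 were higher in the fasted library with the higher enterocyte sum. The Paneth sum was higher in the other fasted library of each table, so these genes, Slc30a2 among them, ran against it. Mt2 ran with the Paneth sum in each table, and Mt1 and Slc30a1 did so in a single table. Between the fasted libraries with tetracycline, where the enterocyte sum differed by 8.51-fold, Slc30a10 differed by 3.61-fold, Slc39a4 by 2.94-fold, Slc30a2 by 2.73-fold and Mtf1 by 2.09-fold. Slc39a5 differed by 1.36-fold and Mt1 by 1.24-fold in the same direction, Slc30a1 by 1.05-fold and Mt2 by 1.56-fold, the last 2 in the opposite direction. Without tetracycline the enterocyte sum differed by 2.67-fold between the fasted libraries. In that direction Slc39a4 differed by 2.24-fold, Slc30a10 by 1.98-fold, Slc30a2 by 1.93-fold, Mtf1 by 1.92-fold, Slc30a1 by 1.43-fold and Slc39a5 by 1.03-fold, and in the opposite one Mt2 by 1.36-fold and Mt1 by 1.10-fold. The fed pair without tetracycline gave another order. There the enterocyte sum differed by 1.58-fold, and Slc30a10 by 2.38-fold, Mt1 by 1.70-fold, Mt2 by 1.62-fold, Slc30a2 by 1.51-fold, Slc39a4 by 1.39-fold and Slc39a5 by 1.35-fold in the same direction, with Slc30a1 at 1.11-fold and Mtf1 at 1.02-fold in the opposite one. The part of the cell mixture in the transporter and metallothionein values was not tested. With tetracycline, the log2 change of Mt1 was 2.29 without fasted library 1 and 1.98 without fasted library 2, and that of Mt2 was 2.36 and 3.01.

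**Figure D4:**
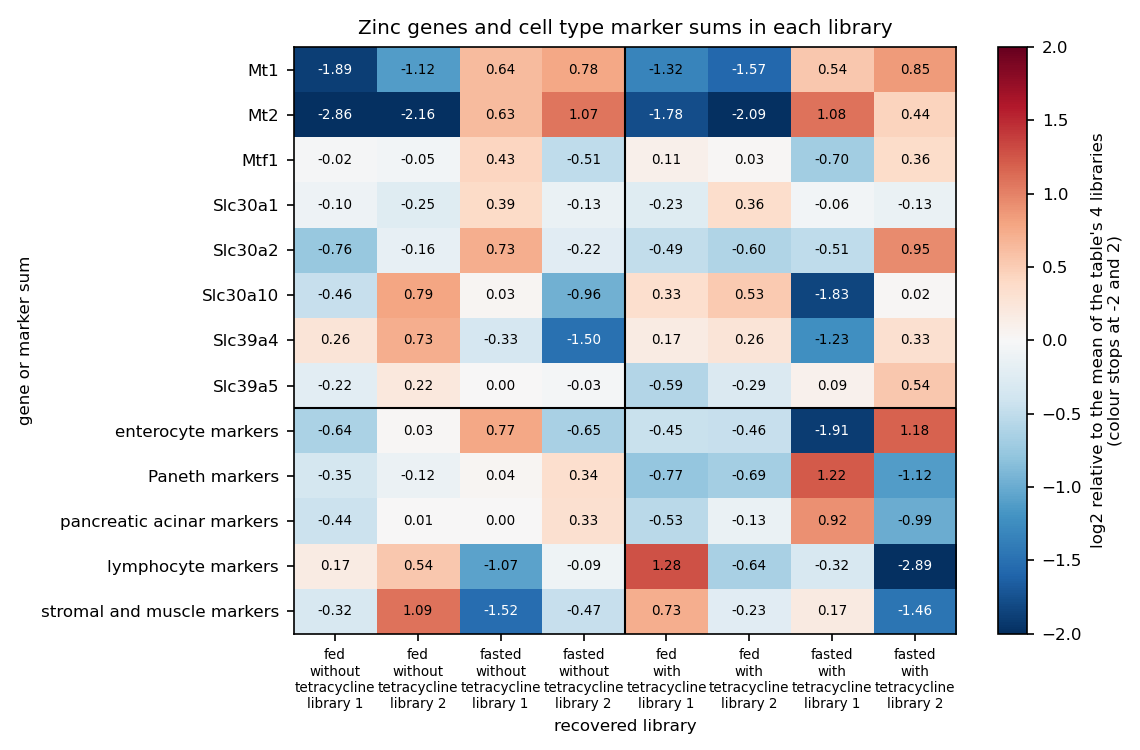
Level of the 8 zinc genes (upper block) and of summed cell type markers (lower block) in each recovered library, as log2 relative to the mean of the 4 libraries of its table, with the value printed in each cell and colours that stop at -2 and 2. In fasted mice with tetracycline the enterocyte sum goes from -1.91 to 1.18 and Slc39a4 from -1.23 to 0.33, while Mt1 stays between 0.54 and 0.85.

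The other zinc transporter and metallothionein genes showed no called change. Of 21 such genes, 18 were tested without and 16 with tetracycline, and 0 were called by DESeq2 in either table, with 1 and 1 at an unadjusted p under 0.05. Their median log2 changes were 0.13 and 0.41, with 11 and 13 genes above 0, beside 0.01 and -0.02 over all tested genes. Slc30a4 encodes ZnT4, a vesicular zinc transporter, and had normalized counts of 9522 and 7165 in the fasted pair against 5597 and 5140 in the fed pair without tetracycline (log2 change 0.64, SE 0.27, DESeq2 adjusted p = 0.281). With tetracycline it had 5442 and 17939 in the fasted pair against 4378 and 6199 in the fed pair (log2 change 1.14, SE 0.61), and the change was 1.76 and 0.04 without fasted library 1 and 2. Slc39a8 encodes ZIP8, an importer of zinc, manganese and iron. Its log2 change with tetracycline, 1.78 (SE 0.61, DESeq2 adjusted p = 0.283), was the farthest from 0 among the tested genes of this list, from 1378 and 3711 in the fasted pair against 495 and 988 in the fed pair, and it was 2.32 and 0.89 without fasted library 1 and 2. Without tetracycline it was 0.44 (SE 0.32). Slc39a10, the ZIP10 importer gene, had a change of -0.60 (SE 0.33) without tetracycline, and Slc39a14, the ZIP14 importer gene, 0.64 (SE 0.56) with it, the latter 1.19 and -0.27 without fasted library 1 and 2.

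Of 7 other genes tied to the same factor as background knowledge, 1 had a change above 0 without tetracycline and 3 did with it. Ndrg1, a stress-responsive gene, rose without tetracycline (log2 change 0.98, SE 0.26, DESeq2 adjusted p = 0.0133). Slc40a1, which encodes the iron exporter ferroportin, fell in both tables, by 1.28 (SE 0.34, DESeq2 adjusted p = 0.0113) and by 1.91 (SE 0.49, DESeq2 adjusted p = 0.0201) on the log2 scale. With tetracycline Ndrg1 had a change of 1.79 (SE 0.62), which was 2.44 and 0.58 without fasted library 1 and 2, and did not pass, and the remaining 5 genes passed in neither table. Slc40a1 stood at 2787 and 3275 in the fasted pair against 5037 and 9704 in the fed pair without tetracycline, and at 2059 and 4313 against 11070 and 12823 with it, with no overlap in either table. With tetracycline its change was -1.47 and -2.54 without fasted library 1 and 2. Slc40a1 is also in the list of proximal small intestine markers, and the part of the gut region in its values was not tested. Of 11 genes of copper transport and its chaperones, 10 were tested and 0 were called by DESeq2, with 0 at an unadjusted p under 0.05 in either table.

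Some glucocorticoid-responsive genes rose as well. Of 10 tested genes of this list, 4 rose without and 3 with tetracycline, where 1.06% and 0.333% of all tested genes did. As lower, 0 of the list passed. The median log2 changes were 0.81 and 0.93, with 9 and 8 genes above 0. Dusp1 had the lowest change, at -1.16 and -0.34, the latter 0.02 and -0.82 without fasted library 1 and 2. Zbtb16, a transcription factor, rose by log2 changes of 4.90 (DESeq2 adjusted p = 2.7e-26) and 3.41 (DESeq2 adjusted p = 0.000339), the latter 4.09 and 2.07 without fasted library 1 and 2. Fkbp5, a chaperone of the glucocorticoid receptor, rose by 2.65 (DESeq2 adjusted p = 2.03e-14) and 2.22 (DESeq2 adjusted p = 0.0147), the latter 2.77 and 1.33 without these libraries in turn. Ddit4, an inhibitor of the growth kinase mTORC1, rose by 1.07 (DESeq2 adjusted p = 0.00532) and 1.82 (DESeq2 adjusted p = 0.000142), and Per1, a clock gene, rose by 1.31 (DESeq2 adjusted p = 4.82e-05) without tetracycline, with a change of 0.76 that did not pass with it. With tetracycline Ddit4 was at 1.89 and 1.76 and Per1 at 0.84 and 0.67 without fasted library 1 and 2. In the list of acute phase and STAT3 genes, 2 of 9 tested genes rose without tetracycline and 0 of 7 did with it. They were Socs3, a feedback inhibitor of cytokine signalling, with a change of 1.995 (SE 0.38, DESeq2 adjusted p = 3.96e-05), and the serum amyloid gene Saa1 (DESeq2 adjusted p = 0.0192), whose counts sat mostly in 1 library, at 788 against 33.3 in the other fasted library. With tetracycline Socs3 had means of 645 in the fasted and 828 in the fed pair, which overlapped. Its change there was -0.07 and -0.72 without fasted library 1 and 2. The change of Socs3 with minus that without tetracycline was -2.36 (SE 0.63, Wald test adjusted p = 0.269). Saa1 was barely read with tetracycline, with means of 1.79 and 0.39. A role of any of these genes in the metallothionein values was not tested.

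Among 9291 genes with a symbol and means of at least 500 in both tables, the 3 with the pair of log2 changes nearest to that of Mt1 were Akr1b7, an aldose reductase relative (2.01 and 2.14), Slc5a8, a monocarboxylate transporter (2.12 and 1.95), and Mmp7, the Paneth cell protease (2.07 and 1.93). Akr1b7 and Mmp7 were called without tetracycline, and none of the 3 with it. Nearest to Slc39a4 were Akr1c14 (-1.21 and -0.39), Ifrd1 (-1.47 and -0.45) and Agr2, a secretory cell chaperone (-1.20 and -0.33), each called without and not with tetracycline. With tetracycline Mmp7 was at 0.63 and 2.60 and Agr2 at -0.56 and -0.13 without fasted library 1 and 2. Likeness here is Euclidean distance over 2 values and says nothing of shared control.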

How the data were processed

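RNA-seq of small-intestinal crypts was analysed from the authors' 2 comparison tables, made with Salmon and DESeq2 on mm10 per the submitters' processing notes, which give no versions. Per the file headers, the authors' mean is a signal (counts over size factors, averaged over a table's libraries). The deposited log2 change has a standard error of the same unit, the deposited statistic is a score that divides the first by the second, and the authors' p-values were adjusted by Benjamini-Hochberg. The tables were scaled separately, and 0 further per-sample columns were left unused.

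The members and gene lists were chosen with earlier results of these data known. Named genes were the 8 members, genes of 5 lists called in either table, the 3 largest changes per table among other zinc genes with a mean of at least 50, and the 3 nearest genes to Mt1 and Slc39a4. Pdk4, Mt3, Mt4, Dusp1, genes that share words with the members and single genes of the marker lists were named besides these. Whole counts were solved from the steps in the means and matched to the deposited changes, through a negative binomial fit that gave no test, for genes with means up to 40000, which was tested on simulated data. In a 1 in 8 subset of genes with means of 1000 to 4000, 586 of 586 and 599 of 599 were solved. Values per library were not in a deposited column, so no count test was run on them. The design had allowed for counts per sample. As the tables give comparisons, their test was kept. Levels across tables used side means rebuilt from mean and change with pseudocount 1, centred on medians of 0.06 and 0.06. Motif, word and position searches used RefSeq GRCm38.p6 and GENCODE M21. Of the deposited gene identifiers, 99.3% and 99.2% matched GENCODE M21 without the version number and 0.0513% and 0.0502% with it. For 96.28% and 96.19% the deposited version number was 1 higher. Python 3.11.15, numpy 2.4.6, pandas 2.3.3 and SciPy 1.17.1 were used. Alternatives changed the threshold, the genes adjusted over, the scaling, the pseudocount and the libraries used.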

Additional observations from a re-analysis of the deposited data

How the results depend on the processing

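The calls of Mt1 and Mt2 held at adjusted p under 0.01, with adjustment over every gene with a p or over genes with a mean of at least 50, and after centring on the median change. The call of Slc39a4 without tetracycline was lost at 0.01 and held under the other 3. At 0.01 the genes called in all fell to 246 without and 68 with tetracycline. For the difference of the changes, 1 gene was called with adjustment over genes with a mean of at least 50 and 32 with the statistic divided by its robust SD of 0.714, and 0 of the 8 zinc genes in each case. Genes called in all were 353 and 90 with adjustment over every gene with a p, 382 and 105 with adjustment over genes with a mean of at least 50, and 407 and 108 after centring, without and with tetracycline. The other pseudocounts, adjustments and centrings changed no call among the 8 zinc genes, and the sign of a value of theirs turned only for the level ratio of Slc39a4 in fasted mice, which was 0.0049 and became -0.00093 when centred on genes with a mean of at least 50. Leaving out each recovered library, an alternative chosen after seeing the data, gave log2 changes of 1.83 to 2.60 and 1.98 to 2.29 for Mt1, 3.02 to 3.72 and 2.36 to 3.01 for Mt2, 0.21 to 1.16 and 0.04 to 1.49 for Slc30a2, and -2.01 to -0.84 and -1.44 to 0.11 for Slc39a4, without and with tetracycline. The range crossed 0 for Mtf1 (-0.48 to 0.46 and -0.77 to 0.30), for Slc30a10 (-1.25 to 0.08) and Slc39a5 (-0.23 to 0.20) without tetracycline, and for Slc30a1 (-0.45 to 0.14) with it. No paired analysis was possible because the labels list 1 sample in each group and the recovered libraries carry no number. With 2 libraries a side, changes of the size seen for the transporters had standard errors of 0.27 to 0.62, which limits what the tables can show.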
